A study of Mus musculus with 2 samples.

Results

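Ribosome biogenesis is followed here through 35 genes, the Myc genes Myc and Mycn and 33 genes for factors that make ribosomes, in single cells of mouse liver with and without c-Maf in the endothelium. The genes were given as a list by symbol, and all 35 were among the 32285 genes of the deposited tables. The study compared 1 c-Maf KO library with 1 control library of endothelial and hematopoietic cells from livers at postnatal day 15, each pooled from 1 male and 1 female mouse. Cells were sorted and captured in droplets, and each captured transcript was counted once by its unique molecular identifier (UMI). The question behind the design, by the title of the series, is the part of c-Maf in the change of fetal liver endothelial progenitors into mature sinusoids. The sample titles assign the c-Maf KO to the endothelial cells of the mice. The sources used here give no allele, driver, strain or agent, nor what the mice of both groups share beyond age and organ. With 1 library per group no test between groups was possible, so no p-value was computed, and differences between the mice and between the captures cannot be told apart from the effect of the deletion.

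Ribosomes are built in the nucleolus. RNA polymerase I transcribes a long precursor of the ribosomal RNAs, small nucleolar RNPs modify it (box C/D particles methylate it, box H/ACA particles convert uridines to pseudouridine), and large sets of assembly factors cut and fold it into the small and the large subunit. Myc, a transcription factor that binds DNA together with Max, is known for raising the genes of this pathway in growing cells, and the level of the pathway is commonly read as a sign of growth. In the mature liver sinusoid, a fenestrated capillary whose endothelial cells clear the blood, most endothelial cells are quiescent.

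The c-Maf KO library held 60281713 UMIs in 9058 barcodes and the control library 54143192 UMIs in 9038 barcodes. The authors' annotation named 2991 c-Maf KO and 2948 control cells in 7 endothelial clusters, with a median of 7320 and 4985.5 UMIs per cell. Levels below are UMIs of a gene scaled to a total of 1000000 UMIs in the summed cells (CPM), and ratios are c-Maf KO over control unless said otherwise. Intervals are exact 95% intervals for counting error, and they cover neither mice nor libraries. Calls of higher and lower rest on a rule of size: the fold is 1.5 or more, the interval leaves out equality, and the sums hold 50 or more UMIs together. Maf, the targeted gene, stood at 162 CPM in c-Maf KO and 2070 CPM in control endothelial cells (log2 ratio -3.68). The 5 endothelial markers Pecam1, Cdh5, Kdr, Tek and Ptprb summed to 3605 CPM in c-Maf KO and 5818 CPM in control cells, with a median log2 ratio of -0.53. In the hematopoietic cluster K they summed to 664 CPM in c-Maf KO and 1162 CPM in control cells, so the endothelial sums stood above that level in both libraries. The endothelial cluster KOS_2 of the c-Maf KO library had 1940 CPM of them. The 6 sinusoidal markers Stab1, Stab2, Lyve1, Clec4g, Fcgr2b and Mrc1 summed to 2405 CPM in c-Maf KO and 9353 CPM in control cells. The libraries had 25 barcodes in common.

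In endothelial cells 26 of the 35 genes were called higher in the c-Maf KO library, none was called lower, and 9 met neither rule. Of all 11927 genes with enough UMIs, 14.2% were called higher and 15.5% lower. Each of the 35 ratios was above equality with its whole interval. The median log2 ratio of the 35 genes was 0.83, beside -0.08 over all genes with at least 20 UMIs. The 33 ribosome biogenesis genes together took 3038 CPM in c-Maf KO (3016 to 3061) and 1623 CPM in control cells (1604 to 1643), a ratio of 1.87-fold (log2 0.90, 0.88 to 0.92). Per cell, that was 23.0 UMIs of the 33 genes in c-Maf KO and 8.94 UMIs in control endothelial cells, a gap that holds the deeper sampling of the c-Maf KO cells as well.

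**Figure D1:**
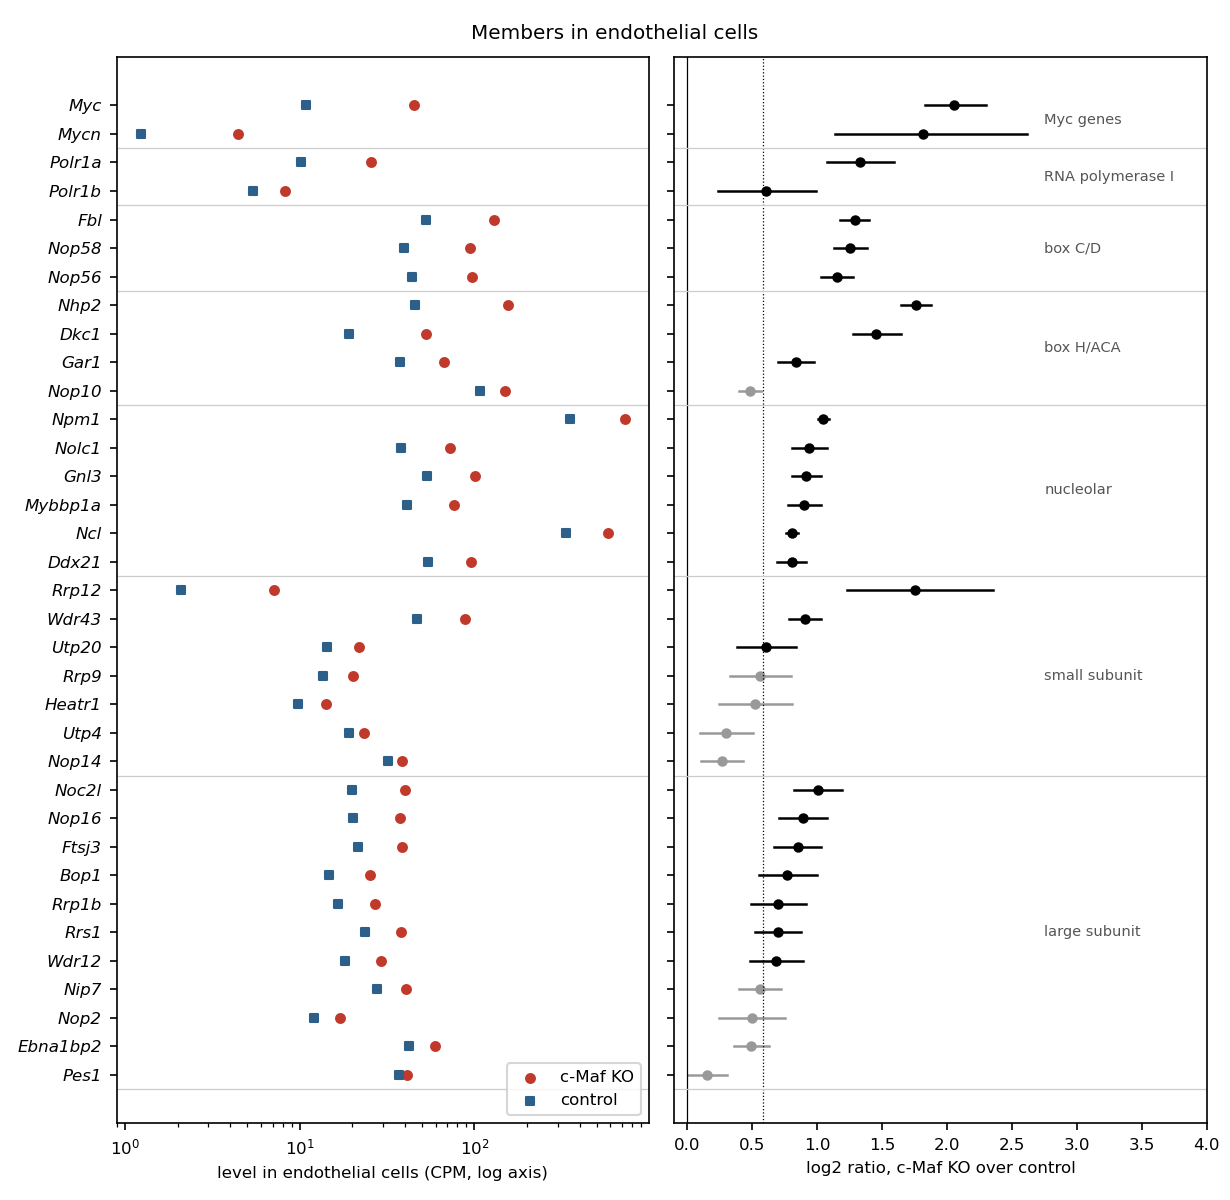
Levels of the 35 genes in endothelial cells, c-Maf KO as red circles and control as blue squares, on a logarithmic CPM axis (left), and log2 ratios of c-Maf KO over control with 95% counting intervals (right), grouped by role. Black marks are the 26 genes called higher, grey marks the 9 that were not, and the dotted line is 1.5-fold. Every ratio lies right of 0, from 0.15 for Pes1 to 2.06 for Myc.

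The Myc genes had the highest ratios of the groups by role. Myc (chr15:61985391-61990374, plus strand, mm10) gave 1023 UMIs in c-Maf KO and 176 in control endothelial cells, or 45.2 and 10.8 CPM. Its log2 ratio was 2.06 (1.83 to 2.30), a 4.16-fold difference. Mycn, a Myc paralog used mainly in embryonic tissues, was scarce, with 100 UMIs in c-Maf KO and 20 in control cells. Its level was 4.42 CPM in c-Maf KO and 1.23 CPM in control cells, and its log2 ratio 1.82 (1.14 to 2.62). No single cell carried these sums in the c-Maf KO library, where the cell with the most UMIs held 0.88% of those of Myc and 2% of those of Mycn.

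Both RNA polymerase I genes were called higher. Polr1a, the largest subunit of the enzyme, had 25.6 CPM in c-Maf KO and 10.2 CPM in control cells (log2 1.33, 1.08 to 1.59). Polr1b, a further subunit of its catalytic core, had 8.27 CPM in c-Maf KO and 5.42 CPM in control cells (log2 0.60, 0.24 to 0.99), just past the 1.5-fold rule.

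The particles that modify ribosomal RNA showed ratios above 2-fold for 5 of their 7 proteins. All 3 box C/D proteins were called higher, with a median log2 ratio of 1.26. Fbl, the methyltransferase fibrillarin, had 128.6 CPM in c-Maf KO and 52.6 CPM in control cells (log2 1.29). The scaffold proteins Nop58 and Nop56 had log2 ratios of 1.26 and 1.15. Of the 4 box H/ACA proteins, Nhp2, Dkc1 and Gar1 were called higher and Nop10 was not. Nhp2, a core protein of the particle, had 155.0 CPM in c-Maf KO and 45.7 CPM in control cells, with a log2 ratio of 1.76 (1.65 to 1.88). Dkc1, the pseudouridine synthase dyskerin, had 52.7 CPM in c-Maf KO and 19.2 CPM in control cells (log2 1.46). Gar1 had a log2 ratio of 0.83 and Nop10 one of 0.48, so the subunits of this one particle differed in ratio, from 1.40-fold for Nop10 to 3.39-fold for Nhp2.

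The 6 nucleolar proteins of broader function were all called higher, in a narrow range of log2 ratios from 0.80 to 1.05. Npm1, the histone and ribosome chaperone nucleophosmin, had 725.5 CPM in c-Maf KO and 350.9 CPM in control cells (log2 1.05, 1.004 to 1.092). Ncl, nucleolin, which binds the ribosomal RNA precursor, had 582 CPM in c-Maf KO and 333 CPM in control cells (log2 0.80, 0.76 to 0.85). Nolc1, a chaperone of small nucleolar RNPs, had a log2 ratio of 0.94, the GTP-binding protein Gnl3 (nucleostemin) 0.92, Mybbp1a 0.90 and the RNA helicase Ddx21 0.80. Npm1 has processed copies elsewhere in the genome, and how reads shared between copies were counted is not given, so its level is less certain than its neighbours'.

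Factors of the small subunit were split. Rrp12, known in yeast for the export of both subunits, had 162 UMIs in c-Maf KO and 34 in control cells, a log2 ratio of 1.76 (1.23 to 2.35). Wdr43, of the complex that joins the precursor first, had 88.1 CPM in c-Maf KO and 47.0 CPM in control cells (log2 0.90), and Utp20 had a log2 ratio of 0.61. The other 4 were not called higher, with log2 ratios of 0.56 for Rrp9, a protein of the U3 particle, 0.52 for Heatr1, 0.30 for Utp4 and 0.27 for Nop14. Heatr1 and Utp4 sit in the same complex as Wdr43. The median over the 7 genes was 0.56.

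Of 11 large subunit factors, 7 were called higher, and the median log2 ratio was 0.70. The highest was Noc2l, with 39.96 CPM in c-Maf KO and 19.9 CPM in control cells (log2 1.01, 0.82 to 1.19). Nop16 had a log2 ratio of 0.89, the RNA methyltransferase Ftsj3 0.85, Rrs1 0.70 and Rrp1b 0.70. The PeBoW complex, which processes the precursor of the large subunit, has 3 proteins, and they did not have like ratios. Bop1 had a log2 ratio of 0.77 (0.552 to 0.996) and Wdr12 one of 0.68 (0.49 to 0.89), both called higher. Pes1 had 41.0 CPM in c-Maf KO and 36.8 CPM in control cells, a log2 ratio of 0.15 (0.00 to 0.30), the lowest of all 35 genes. Nip7, Nop2, which methylates the large ribosomal RNA, and Ebna1bp2 had log2 ratios of 0.56, 0.50 and 0.49. Rrp9 and Nip7 lay just under the 1.5-fold rule, at 1.48-fold and 1.47-fold, and Polr1b and Utp20 just past it, both at 1.52-fold.

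Promoter letters of these genes are shown because Myc and Max bind the E-box CACGTG, and because the genes moved in one direction. Of the 35 genes, 29 had an entry in the RefSeq promoter table (build GRCm38.p6), which gives 250 bases before and 50 bases after each start. Bop1, Fbl, Myc, Npm1, Rrp12 and Rrs1 had none. CACGTG, which reads the same on both strands, stood in 6 of the 29 promoters (20.7%), beside 8.09% of the promoters of all 27025 genes in the table. The 6 windows of 30 bases around it follow, 5′ to 3′ on the strand of the gene, with the E-box in capitals. The E-box began 60 bases before the start in Nop2 and after the start in the other 5, where the start is position 1: at 3 in Pes1, 16 in Utp4, 18 in Wdr43, 38 in Utp20 and 41 in Mybbp1a.
Nop2, chr6:125131811-125131840, plus strand: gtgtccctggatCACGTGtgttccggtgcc
Pes1, chr11:3963965-3963994, plus strand: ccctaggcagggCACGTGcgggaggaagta
Utp4, chr8:106893643-106893672, plus strand: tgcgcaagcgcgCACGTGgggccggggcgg
Wdr43, chr17:71616220-71616249, plus strand: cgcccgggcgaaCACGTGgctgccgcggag
Utp20, chr10:88826765-88826794, minus strand: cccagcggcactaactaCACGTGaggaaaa
Mybbp1a, chr11:72441347-72441376, plus strand: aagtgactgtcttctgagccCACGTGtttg

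Among the 29 genes with an entry, those with an E-box in this window were not those with the highest ratios. Their log2 ratios ran from 0.15 for Pes1 to 0.90 for Wdr43 and Mybbp1a with a median of 0.55, and 3 of the 6 were called higher. The 23 genes with a promoter and no E-box in it had a median of 0.83, and 17 of them were called higher. The 6 genes without an entry could not be searched, and their log2 ratios ran from 0.70 for Rrs1 to 2.06 for Myc. Other promoter motifs were searched on both strands as well. The ETS motif CCGGAAG stood in 31% of the 29 promoters and 9.93% of all, the GC box GGGCGG in 75.9% and 38.2%, and the CCAAT box in 31% and 41.1%. A match is a string of letters and not a bound site, and these data hold no binding measurement.

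The 120 bases before the start are shown for 2 genes of high and 2 of low ratio, so that the letters upstream of both can be read side by side, each 5′ to 3′ on the strand of the gene in GRCm38.p6. Capitals mark the motifs named above.
Dkc1, chrX:75095734-75095853, plus strand: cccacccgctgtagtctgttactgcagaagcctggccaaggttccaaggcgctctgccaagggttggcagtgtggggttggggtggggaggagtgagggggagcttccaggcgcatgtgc
Polr1a, chr6:71908933-71909052, plus strand: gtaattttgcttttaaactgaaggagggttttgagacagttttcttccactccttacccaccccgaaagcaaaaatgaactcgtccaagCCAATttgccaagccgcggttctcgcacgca
Nop14, chr5:34660149-34660268, minus strand: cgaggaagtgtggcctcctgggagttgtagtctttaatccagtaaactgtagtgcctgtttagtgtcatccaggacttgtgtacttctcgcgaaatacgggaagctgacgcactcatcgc
Pes1, chr11:3963855-3963974, plus strand: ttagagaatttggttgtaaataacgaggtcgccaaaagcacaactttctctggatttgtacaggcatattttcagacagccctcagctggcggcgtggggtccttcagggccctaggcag
The log2 ratios were 1.46 for Dkc1, 1.33 for Polr1a, 0.27 for Nop14 and 0.15 for Pes1. Among these 4 windows, only that of Polr1a holds one of the motifs, a CCAAT box that begins 31 bases before the start. The same windows of 2 other genes of high ratio, not shown, did hold motifs: that of Nhp2 (log2 1.76) an ETS motif, a GC box and 3 CCAAT boxes, and that of Nop58 (1.26) a GC box. The full promoters searched above reach further on both sides. There Dkc1 had a CCAAT box, Nop14 a GC box and Pes1 its E-box.

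Over all endothelial cells, the difference between the libraries was present within each of the authors' cell cycle phase calls. In cells called G1, 21 of the 35 genes were called higher and none lower, beside 11% of all genes called higher and 13.8% lower. The 33 genes summed to 2646 CPM in 2081 c-Maf KO and 1588 CPM in 2733 control G1 cells, 1.67-fold. In cells called S they summed to 4178 CPM in 603 c-Maf KO and 2411 CPM in 142 control cells, with 20 genes called higher beside 6.44% of all genes. In cells called G2M they summed to 3294 CPM in 307 c-Maf KO and 1919 CPM in 73 control cells, with 15 genes called higher beside 6.25% of all genes. Myc had 43.6, 55.1 and 36.7 CPM in G1, S and G2M cells of the c-Maf KO library and 10.6, 11.6 and 17.4 CPM in those of the control library, the last 2 from 6 and 8 UMIs. The clusters behind a phase call differed between the libraries. Of cells called G1, 1620 c-Maf KO cells were in KOS_1, KOS_2 and KOS_3, and 2657 control cells in S and S2. In S and S2 cells called G1 (313 c-Maf KO, 2657 control) the sum was 1.10-fold, without a call. In cluster C-EC it was 1.46-fold in cells called S, without a call, and 1.69-fold in cells called G2M, called higher. The part of the clusters was not tested.

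Within a library the sum of the 33 genes also differed between phases. In c-Maf KO endothelial cells it was 1.58-fold higher in S than in G1 cells, and 17 of 35 genes were called higher beside 9.07% of all genes. The box C/D scaffold gene Nop56 had 173.5 CPM in S and 66.1 CPM in G1 cells of this library. In control cells the sum was 1.52-fold higher in S than in G1 cells, with 11 genes called higher beside 7.69% of all genes. For G2M over G1 the log2 ratio was 0.32 in c-Maf KO and 0.27 in control cells, without a call. The cells called S in the control library were shallow, with a median of 1640 UMIs against 6813 in the c-Maf KO library. Of these 142 control cells, 98 were in cluster S, where the sum was 1.16-fold higher in S than in G1 cells, without a call. A further 28 were in cluster C-EC, with 2736 CPM. Within cluster KOS_1 of the c-Maf KO library the sum was 1.53-fold higher in S than in G1 cells. The part of the mix of clusters in the S over G1 ratios was not tested. Over all endothelial cells, the S over G1 ratio of the sum lost its call in c-Maf KO male-type cells (log2 0.52). In control cells it lost its call without marked doublets (0.51), in thinned cells (0.51) and under median scaling (0.58). Polr1b is in one published version of the S phase gene list that such calls use; which list the authors used is not given, and without Polr1b the log2 ratios of S over G1 were 0.66 in c-Maf KO and 0.61 in control cells, as with it to within 0.01. The phase calls are the authors' and are not read as cycling.

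**Figure D2:**
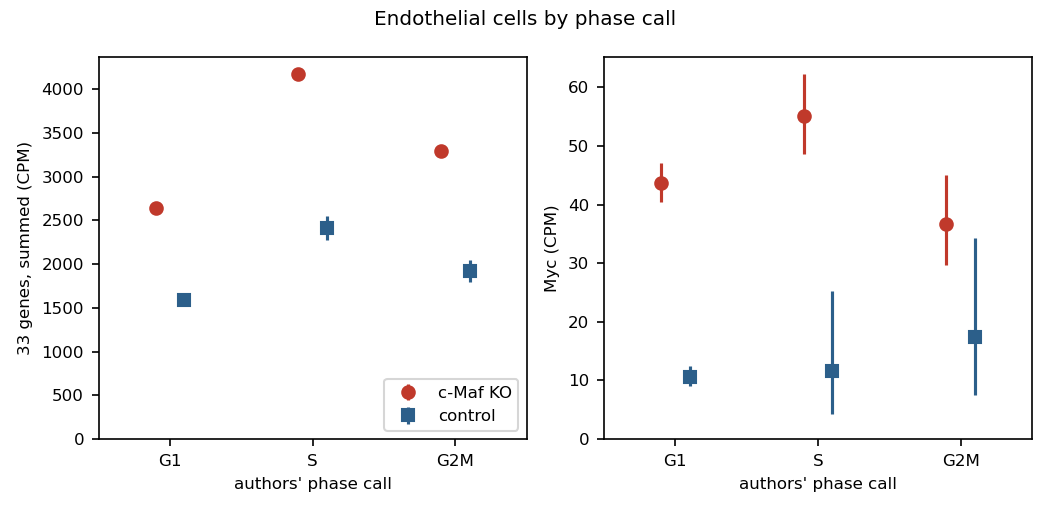
Summed level of the 33 ribosome biogenesis genes (left) and level of Myc (right) in CPM, in endothelial cells of each phase call, c-Maf KO (red circles) and control (blue squares), with exact 95% Poisson intervals. The c-Maf KO sum lies above the control sum in G1, S and G2M, and the Myc intervals of the libraries overlap only in G2M.

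By cluster, the 33 genes were higher in 4 endothelial clusters of the c-Maf KO library than in its S, S2 and PV. These were C-EC, found in both libraries and described below, and KOS_1, KOS_2 and KOS_3, which the c-Maf KO library nearly alone supplied. The sinusoidal markers summed to 2105, 1326 and 2445 CPM in KOS_1, KOS_2 and KOS_3. In S and S2 of the same library they summed to 6397 and 8154 CPM. KOS_2 was also shallow, with a median of 1797 UMIs in its c-Maf KO cells called G1. S and S2 are the sinusoidal clusters found in both libraries. KOS_1 (1356 c-Maf KO cells, Maf at 9.32 CPM) had 3165 CPM of the 33 genes and 52.6 CPM of Myc. KOS_2 (518 cells) had 3260 CPM and 44.4 CPM, and KOS_3 (238 cells) had 2920 CPM and 50.8 CPM. In the 336 cells of S and S2 in the c-Maf KO library, Maf stood at 1457 and 1998 CPM, against 1578 and 2327 CPM in S and S2 of the control library, so these cells held Maf RNA near the control level. There the 33 genes summed to 1803 CPM in c-Maf KO and 1597 CPM in 2779 control cells, 1.13-fold, and 2 of 35 genes were called higher and none lower, beside 3.68% of all genes called higher and 3.75% lower. The 2 were Myc, with 24.0 CPM in c-Maf KO and 10.9 CPM in control cells (log2 1.16, 0.64 to 1.63), and Nhp2, with 73.1 CPM and 42.7 CPM (log2 0.78, 0.50 to 1.04). Taken singly, cluster S had Myc and Nhp2 called higher and none lower, beside 6.24% of all genes higher and 2.55% lower. Cluster S2 had Nhp2 called higher and the small subunit factor gene Utp4 lower (10.3 CPM in c-Maf KO, from 10 UMIs, and 19.7 CPM in control cells), beside 3.36% of all genes higher and 3.34% lower. The median log2 ratio of the members was 0.06 in S and S2 together, beside 0.00 over all genes. All 247 of these c-Maf KO cells that could be typed were female-type (defined below), and against female-type control cells of S and S2 the sum was 1.03-fold with none of the 35 genes called, beside 3.9% of all genes called higher and 4.3% lower.

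Inside the c-Maf KO library, which shares 1 capture, the KOS clusters had 1.75-fold the summed level of S and S2 (3160 and 1803 CPM). Of the 35 genes, 28 were called higher and none lower, beside 10.3% of all genes called higher and 13.5% lower. The authors clustered the cells on their expression, so this describes the clusters and tests nothing. Dkc1 had 55.8 CPM in KOS and 18.3 CPM in S and S2 cells, Fbl 137.1 and 58.5 CPM, and Nop56 95.3 and 36.0 CPM. Myc had 51.9 CPM in KOS and 24.0 CPM in S and S2 cells. Mycn had 76 UMIs in KOS cells and 0 in S and S2, at least 3.02-fold higher against a floor of 3 counts. Pes1 had 42.0 and 42.8 CPM and Nop14 38.3 and 36.0 CPM, without a call. Among cells called G1 the KOS sum was 1.61-fold that of S and S2, and among female-type cells 1.74-fold.

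In the cycling endothelial cluster C-EC, 95.8% of 408 c-Maf KO and 100% of 89 control cells were called S or G2M. There 15 genes were called higher and none lower, beside 5.7% of all genes called higher and 14.6% lower. The 33 genes summed to 3457 CPM in c-Maf KO and 2197 CPM in control cells, 1.57-fold, and the median log2 ratio of the members was 0.75, beside -0.16 over all genes. Noc2l and Nip7 had the highest ratios of those called (log2 1.46 and 1.76, from 8 and 7 control UMIs). Myc had 126 UMIs in c-Maf KO and 9 in control cells of this cluster, 35.9 and 14.1 CPM. In cluster PV, with 135 c-Maf KO and 56 control cells, none of the 17 genes with enough UMIs was called, beside 6.08% of all genes called higher and 6.26% lower, and the sum was 2087 CPM in c-Maf KO and 1767 CPM in control cells (1.18-fold). For Myc, PV held 16 UMIs in c-Maf KO and 1 in control cells. The difference between the ratio in PV and that in sinusoidal cells was not tested.

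Across clusters of at least 50 cells, the sum of the 33 genes was highest in the hematopoietic cluster C1 (98.4% of c-Maf KO and 97.8% of control cells called S or G2M) and lowest in neutrophils in both libraries (5089 and 695 CPM in c-Maf KO, 4578 and 773 CPM in control). In the c-Maf KO library C-EC, KOS_2, KOS_1 and KOS_3 took ranks 5, 6, 8 and 9 of 20 clusters, among lymphoid clusters such as B3 (3253 CPM) and T-Gzm (2868 CPM). PV, S and S2 took ranks 16, 18 and 19. In the control library the endothelial clusters C-EC, S, PV and S2 took ranks 14, 15, 16 and 18 of 19. The intervals of neighbours in this order overlapped in 11 of 19 pairs in the c-Maf KO and 9 of 18 pairs in the control library, so many ranks next to each other cannot be told apart. Myc was highest in the B cell cluster B3, with 63.6 CPM in c-Maf KO and 85.5 CPM in control cells. KOS_1 came next in the c-Maf KO library, with 52.6 CPM. Over the 39 points of cluster and library, the Spearman rank correlation of Myc with the sum of the 33 genes was 0.64, and it was 0.58 over the 20 clusters of the c-Maf KO and 0.64 over the 19 of the control library. These points share 2 libraries and differ in depth. Cluster C1 shows the relation to be loose, with the highest sum and a Myc level of 22.8 CPM in c-Maf KO and 20 CPM in control cells.

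**Figure D3:**
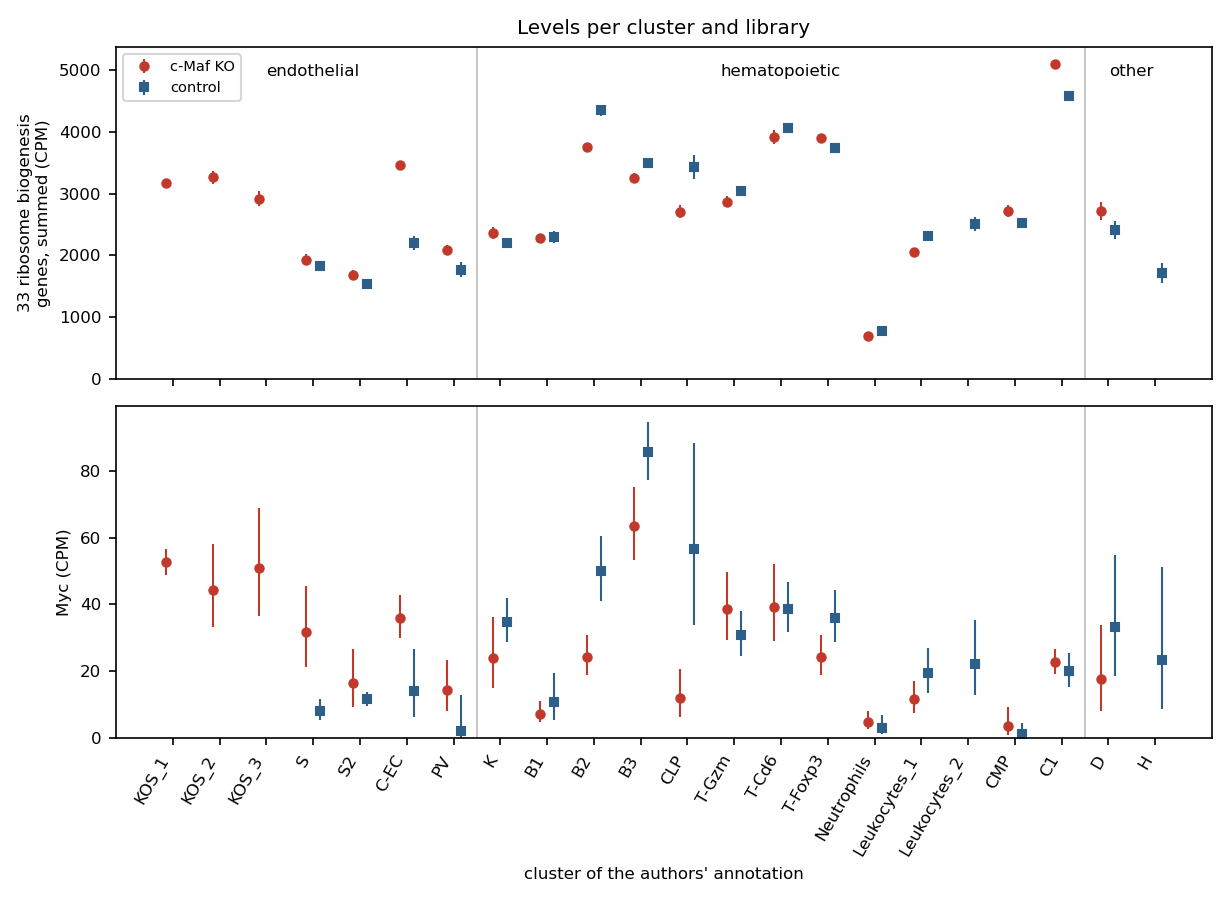
Summed level of the 33 ribosome biogenesis genes (top) and level of Myc (bottom) in CPM per cluster, c-Maf KO (red circles) and control (blue squares), with exact 95% Poisson intervals, for clusters of at least 50 cells in a library. KOS_1 to KOS_3 stand at 2920 to 3260 CPM, while S and S2 stand at 1531 to 1925 CPM in both libraries.

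Hematopoietic cells of the same livers did not show the difference. In 12 clusters with at least 50 cells in each library, the log2 ratio of the sum ran from -0.34 to 0.15, and it was called in none. The median log2 ratio of the members ran from -0.42 to 0.07. Over the 12 clusters, 3 of 340 ratios of single genes were called higher and 16 lower, beside 1.49% to 4.45% of all genes called higher and 1.26% to 6.61% called lower in a cluster. The 3 were Gnl3 in cluster K, Nop56 in CMP and Heatr1 in C1. The clusters with the most calls were B2 and CLP, both with 4 genes lower. In B2, Myc had 24.3 CPM in c-Maf KO and 49.99 CPM in control cells (log2 -1.03, -1.50 to -0.59), and the sum was 3745 CPM in c-Maf KO and 4347 CPM in control cells. In CLP, Nolc1, Nhp2, Gnl3 and Ddx21 were lower, with 239 c-Maf KO and 55 control cells behind the comparison. The background of genes called lower was 1.69% in B2, 1.26% in B3, 3.14% in CLP, 5.78% in T-Gzm, 5.3% in neutrophils, 2.8% in Leukocytes_1, 3.61% in CMP and 6.61% in K, the 8 clusters with a member called lower. In K, CMP and C1, each with 1 member called higher, 4.45%, 2.12% and 1.49% of all genes were called higher. Where no member was called in a direction, higher calls of all genes made up 1.95% in B2, 1.8% in B3, 2.3% in CLP, 1.72% in T-Gzm, 3.46% in neutrophils and 1.99% in Leukocytes_1, and lower calls 2.2% in C1. Clusters B1, T-Cd6 and T-Foxp3 had no member called, where 2.05%, 2.26% and 1.89% of all genes were called higher and 1.66%, 2.15% and 1.83% lower. The difference between the endothelial and hematopoietic ratios was not tested, since each library enters once.

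**Figure D4:**
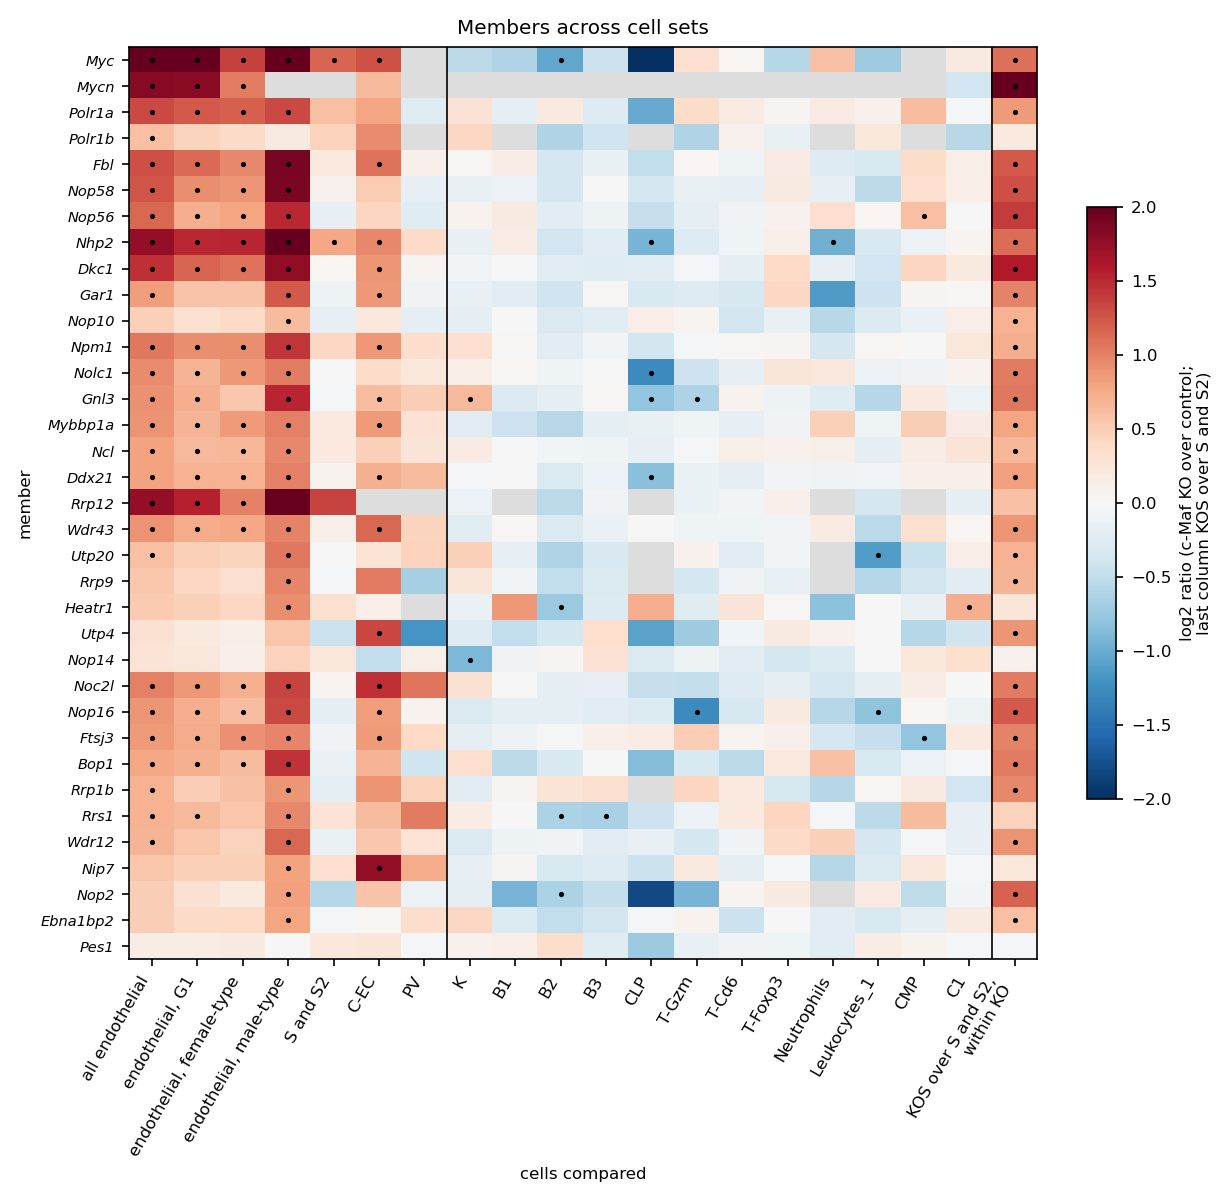
Log2 ratios (colour) of the 35 genes in sets of cells, c-Maf KO over control, and in the last column KOS over S and S2 cells within the c-Maf KO library. Dots mark genes called higher or lower, and grey cells hold fewer than 20 UMIs. Red fills the columns of all endothelial cells (26 dots), while the column of S and S2 has 2 dots and the 12 hematopoietic columns have 19 dots in all.

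Cells of each sex stand for different mice within the pools. Female-type cells carry an Xist UMI and no UMI of 4 Y-linked genes, and male-type cells the reverse, so a type needs detected UMIs and leaves out many shallow cells. Among female-type endothelial cells (1692 c-Maf KO, 772 control) 19 genes were called higher and none lower, beside 11.7% of all genes called higher and 13.6% lower. The 33 genes summed to 2916 CPM in c-Maf KO and 1746 CPM in control cells of this type (1.67-fold). Among male-type cells (328 and 846) 29 genes were called higher and none lower, beside 14.2% of all genes called higher and 23.2% lower. The sum was 3345 CPM in c-Maf KO and 1469 CPM in control male-type cells (2.28-fold). In both types 17 genes were called higher. The ratio was larger in male-type cells for 33 of 35 genes, and the difference between the types was not tested, with 1 mouse behind each value. Myc had 47.0 CPM in c-Maf KO and 18.1 CPM in control female-type cells, and 42.0 and 6.67 CPM in male-type cells, so its control level differed more between the mice than its c-Maf KO level. The c-Maf KO cells of S and S2 were part of the female-type cells and absent from the male-type cells (247 and 0). Immediate early genes, which respond quickly to stimulation, differed between the types too. Summed over Fos, Fosb, Jun, Junb, Egr1, Atf3 and Ier2, a list chosen after values were seen, they had 2105 CPM in c-Maf KO and 3300 CPM in control female-type cells, and 2198 and 1417 CPM in male-type cells. Over all endothelial cells that sum was 1977 CPM in c-Maf KO and 2045 CPM in control cells, a near balance that did not hold by cluster. In S and S2 it was 1252 CPM in c-Maf KO and 2006 CPM in control cells, with 3 of the 7 genes called lower. The 2 clusters went opposite ways. In cluster S, where Myc was called higher (log2 1.95), the sum was 1206.5 CPM in c-Maf KO and 845 CPM in control cells. In S2, where Myc was not called (0.54), the sum was 1296 CPM in c-Maf KO and 2344 CPM in control cells. Inside the c-Maf KO library it was 2256 CPM in KOS_1, where Myc was above S and S2, against 1206.5 CPM in S and 1296 CPM in S2. It was 861 CPM in KOS_2 and 792 CPM in KOS_3, where Myc was also above S and S2. In C-EC and PV of this library it was 1355 and 3737 CPM, with Myc at 35.9 and 14.3 CPM. The part of these genes in the level of Myc was not tested.

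The higher level was also seen at matched depth. With every cell thinned to 1128 UMIs, a Myc UMI was found in 137 of 2760 c-Maf KO endothelial cells (4.96%, exact binomial interval 4.18% to 5.84%) and in 27 of 2585 control cells (1.04%, 0.689% to 1.52%). Thinning left out 231 c-Maf KO and 363 control cells. Without thinning the shares were 21.9% and 4.55%. As a level of background, thinned neutrophils had a Myc UMI in 0.313% of 319 c-Maf KO and 1.43% of 210 control cells. Their medians were 7653.5 and 5576 UMIs before thinning. The share in thinned control endothelial cells lay between these shares, and the neutrophil shares rest on too few cells to order them. Without thinning, Myc stood at 10.8 CPM in control endothelial cells, from 176 UMIs. In neutrophils it stood at 4.95 CPM in c-Maf KO and 3.14 CPM in control cells, from 14 and 6 UMIs. The difference between these cell types was not tested. In cells with 5000 to 10000 UMIs, the 33 genes summed to 2620 CPM in c-Maf KO and 1571 CPM in control cells. In cells with under 2500 UMIs they summed to 3020 CPM in c-Maf KO and 1828 CPM in control cells.

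Other genes of the pathway were counted in the same endothelial cells, where 14.2% of all genes were called higher and 15.5% lower. Their medians lay below the 0.80 of the 33 genes, a difference that was not tested, and the 33 were chosen with earlier results known. Of 44 further small subunit factors, 11 were called higher and none lower, with a median log2 ratio of 0.44. Tsr1, an assembly factor of the small subunit, had 15.6 CPM in c-Maf KO and 6.90 CPM in control cells (log2 1.17), Wdr46 a log2 ratio of 1.05 and Rcl1 one of 0.89. Of 45 further large subunit factors, 15 were called higher and none lower, with a median of 0.43. Ppan had 31.1 CPM in c-Maf KO and 12.99 CPM in control cells (log2 1.26), Nle1 a log2 ratio of 1.10 and Mdn1 one of 0.96. Of 19 genes of the RNA polymerase I machinery, 4 were called higher and none lower, with a median of 0.38, a share of calls not far from that of all genes, and the highest was the polymerase subunit gene Polr1e (log2 1.54). In S and S2 cells the 3 lists had medians of 0.09, 0.03 and -0.00, and the summed small subunit list had a log2 ratio of -0.02, opposite in sign to its median.

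Genes for ribosomal proteins, the parts that the factors assemble, were higher as well. Of 81 with enough UMIs, 54 were called higher and none lower, with a median log2 ratio of 0.68. Together they made up 23.1% of UMIs in c-Maf KO and 14.4% in control endothelial cells, which lowers the CPM of every other gene in the c-Maf KO library. In S and S2 cells they made up 17.2% in c-Maf KO and 14.4% in control cells with none called, in C-EC 21.9% and 13.8% with 56 called higher, and in PV 17.9% and 14.2% with none called. In the hematopoietic cluster K they made up 18.6% in c-Maf KO and 15.4% in control cells with none called. That is a log2 ratio of 0.27 for their sum, beside 0.26 in S and S2. In the other hematopoietic clusters compared, this log2 ratio ran from 0.00 in CLP to 0.11 in T-Gzm. Ribosomal protein genes have many processed copies, so single genes are not named.

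Other known targets of Myc were mostly higher in endothelial cells. Of 44 with enough UMIs, 28 were called higher and 2 lower, with a median log2 ratio of 0.74. Fasn, fatty acid synthase, had 14.0 CPM in c-Maf KO and 3.45 CPM in control cells (log2 2.01). Shmt1, of one-carbon metabolism, had a log2 ratio of 1.87 and Umps, of pyrimidine synthesis, 1.76. The 2 lower genes were the lactate transporter Slc16a1 (log2 -1.42) and Slc3a2, a chain of amino acid transporters (-0.76). In S and S2 cells 1 of these targets was called higher and 3 lower. Of 17 genes of the network of Myc and Max, Mxd3 (log2 1.23) and Ruvbl2 (0.61) were called higher and 4 were lower, among them Mxd1 (-0.94) and Mxi1 (-0.92), which compete with Myc for Max, and Mlxip (-0.81). Beside the 14.2% and 15.5% of all genes, these counts are no result about the network. Of 15 genes of the p53 response, which disturbed ribosome assembly can set off, 7 were called higher and 1 lower, with a median of 0.12. Gtse1 (log2 1.78), Phlda3 (1.40) and Eda2r (1.21) were the highest and Trp53inp1 (-0.65) the lower one. In C-EC cells 1 of 13 with enough UMIs was called higher and 3 lower, beside 5.7% and 14.6% of all genes. In S and S2 cells 3 of 14 were called higher and none lower, beside 3.68% and 3.75%. Whether a p53 response was present was not tested.

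**Figure D5:**
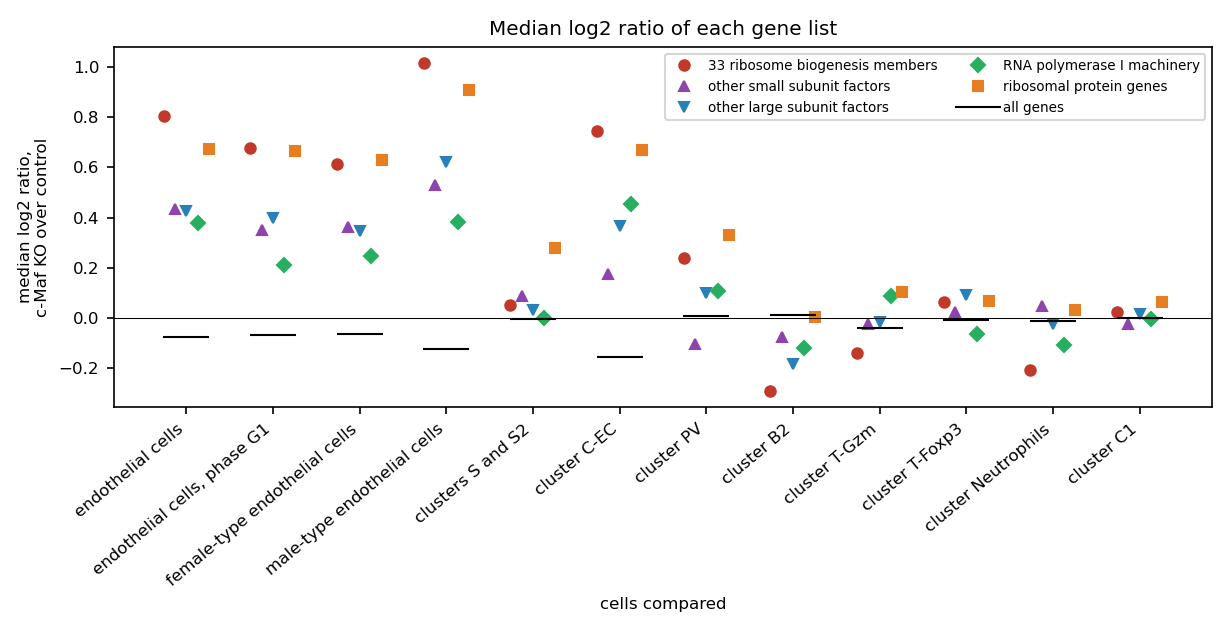
Median log2 ratio, c-Maf KO over control, of the 33 ribosome biogenesis genes, 3 further lists of the pathway and ribosomal protein genes in sets of cells, with the median over all genes as a bar. In all endothelial cells the medians run from 0.38 to 0.80 with all genes at -0.08, and in S and S2 cells from -0.00 to 0.28.

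Markers of other cells were counted in the endothelial sums. The 6 large vessel markers Vwf, Sox17, Cd34, Ly6a, Ephb4 and Gja4 summed to 2564 CPM in c-Maf KO and 505 CPM in control cells, with 3 called higher and 2 lower. In KOS_1 they summed to 2771 CPM, against 1131 CPM in S and 961 CPM in S2 of the same library and 314 and 499 CPM in S and S2 of the control library. They were highest in PV, with 5258 CPM in c-Maf KO and 2446 CPM in control cells, where the 33 genes summed to 2087 and 1767 CPM. Their part in the ratios was not tested. The 6 B cell markers summed to 101 CPM in c-Maf KO and 47.7 CPM in control cells with 5 called higher, against 13406 and 13108 CPM in B2 cells. The 5 markers shared by leukocytes summed to 59.9 CPM in c-Maf KO and 66.3 CPM in control cells, and Kupffer cell markers to 14.8 and 112 CPM. Markers of hepatocytes summed to 45.6 CPM in c-Maf KO and 152 CPM in control cells. The 5 cycling markers summed to 460 CPM in c-Maf KO and 147 CPM in control cells. With the 10% of endothelial cells richest in markers of other cell types left out, 26 genes were again called higher and the sum had a log2 ratio of 0.93. KOS_2 carried 915 CPM of megakaryocyte markers, and without it 25 genes were called higher. The part of remaining free RNA in the ratios was not tested.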

How the data were processed

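The authors deposited tables of UMI counts, genes by barcodes, for 1 c-Maf KO and 1 control library, and a table of cells with cluster name, phase call, counts and the percent of mitochondrial UMIs, per the file headers. The submitters' processing notes name Seurat 3.2.3, Cell Ranger 4.0.0, FastQC 0.11.3 and the build mm10, without roles. The aligner's settings, the strand counted and the capture chemistry are not given there.

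UMIs of annotated cells were summed per library and cell set in Python 3.11.15 (scipy 1.17.1) and divided by their total. Clusters S, S2, KOS_1, KOS_2, KOS_3, C-EC and PV were taken as endothelial, and D and H entered no type. Log2 ratios have 0.5 UMI added to each sum, and medians take genes with at least 20 UMIs. Ratios carry exact conditional binomial and levels exact Poisson 95% intervals, for counting error only. The ratio and its call rule were tested on simulated data. No replicates exist, so no p-value was given.

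The thinning depth of 1128 UMIs is the 10th percentile over endothelial cells. Scrublet (scanpy 1.11.5) set no usable threshold in the control library (1 of 7669 cells marked), so the top 6% of scores per library were left out instead in 1 alternative. The 892 c-Maf KO and 1369 control barcodes without annotation entered none of the sums of annotated cells and were compared once on their own, in the closing section. All 35 members are named, and of each other list up to 3 genes per direction with the largest ratio among those called. Symbols Polr1f, Polr1g and Polr1h of the polymerase list were not matched. The members and lists were chosen with earlier results of these data known.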

Additional observations from a re-analysis of the deposited data

Results flagged for a closer look

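Some members were called higher in endothelial cells and lower in a hematopoietic cluster, which is a difference in direction between cell types that was not tested. In B2, Myc had a log2 ratio of -1.03 and Rrs1 one of -0.63, and Rrs1 had -0.64 in B3. In CLP the log2 ratios were -1.27 for Nolc1, -0.93 for Nhp2, -0.79 for Gnl3 and -0.84 for Ddx21. In T-Gzm they were -1.28 for Nop16 and -0.61 for Gnl3. Nhp2 had -0.96 in neutrophils, Nop16 -0.81 and Utp20 -1.11 in Leukocytes_1, and Ftsj3 -0.79 in CMP. These are 13 values out of the 340 that had enough UMIs in the 12 clusters. In all, 16 of the 340 were called lower, beside 1.26% to 6.61% of all genes in a cluster. The lower calls were not spread evenly. In B2 they were 4 of 33 members with enough UMIs, beside 1.69% of all genes, and in CLP 4 of 21, beside 3.14%. The median log2 ratio of the members was -0.30 in B2, beside 0.01 over all genes, and -0.42 in CLP, beside -0.02. CLP had 55 control cells, and the cause was not tested.

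Barcodes without annotation stand outside the main measurement. The 33 genes summed to 5801 CPM in 892 c-Maf KO and 3940 CPM in 1369 control barcodes, 1.47-fold, which is under the 1.5-fold rule and was not called. Of the 35 genes, 13 were called higher and none lower, beside 8.13% of all genes called higher and 12.7% lower. What cells these barcodes hold was not tested.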

How the results depend on the processing

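In endothelial cells, the higher calls, the median, the summed level and the ratio of Myc kept their direction under each alternative, and no member was called lower under any. The count of higher members moved with the size rule, to 11 at 2-fold, and otherwise ran from 18 in cells with 5000 to 10000 UMIs, an alternative added after seeing the data, to 32 under the lower fold rule. The log2 ratio of the sum ran from 0.74 in G1 cells to 1.19 in male-type cells, that of Myc from 1.37 in female-type to 2.64 in male-type cells, and the median from 0.63 to 1.02. A total without mitochondrial, ribosomal protein and hemoglobin genes moved the median of all genes from -0.08 to 0.09 and gave 32 higher members. For S over G1 cells the sum lost its call in c-Maf KO male-type cells (0.52) and, in control cells, under median scaling (0.58), thinning (0.51) and without marked doublets (0.51); the cause was not tested. Over 14 alternatives, 475 of 476 single values of the members other than Myc stayed above 0, and Nop2 had -0.06 in thinned cells. Leaving out a replicate was not possible with 1 library per group. No paired analysis was possible because each group has 1 library. By phase, male-type control cells were too few to give a value. Depth limits Mycn, Rrp12 and Polr1b and all values in PV and CLP.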
